A study of Mus musculus with 34 samples.

Results

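The genes described here are the mouse zinc finger protein genes whose symbol is Zfp followed by a number and nothing else. Of 254 such genes with a probe on the array, 218 entered the analysis, out of 19798 genes of all kinds. Of these 19798, 12348 had a gene symbol. Each of the others is an array sequence without a symbol, so some may belong to the same gene. All genes, below, means this whole set. A gene entered if, in 1 or more of the 6 groups, a probe for it was well above background in the heart channel on a share of 0.5 or more of the arrays. No fold change or p entered this rule, but the members were chosen with earlier results of these data known. Detection in 1 group was enough, so a difference between groups can decide whether a dim gene entered.

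The study asked how the heart responds to carbon black nanoparticles delivered to the lung. The groups were, at day 1, day 3 and day 28 after a single intratracheal instillation, 6, 5 and 5 mice that received 162 µg of Printex 90 carbon black, and 6 mice at each of these days that received the vehicle alone. All were female C57BL/6 mice, 5 to 6 weeks old when acquired. The vehicle, which every mouse received, was 40 µl of 0.9% NaCl in water with 10% acellular lavage fluid from the lungs of other C57BL/6 mice. No genetic alteration was involved, and all mice were thus instilled once, also the controls. RNA of 1 mouse, from a random piece of heart that held both ventricles, was hybridised in Cy5 on each of 34 Agilent arrays against a universal mouse reference RNA in Cy3. Each value below is a log2 ratio of heart over that reference. A value above 0 means more signal than the reference, and dyes were never swapped, so a dye bias of a probe is part of its ratio.

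Zfp is the mouse prefix for zinc finger proteins, most of which bind DNA through tandem C2H2 fingers, each a short loop held by a zinc ion. Many members also carry a KRAB domain, which recruits the corepressor Trim28 (KAP1) and with it histone methylation and heterochromatin proteins, and these factors are known for silencing retroelements and keeping imprints. The name is not a functional class, however, since it also covers RNA binding proteins such as tristetraprolin (Zfp36), ubiquitin and SUMO ligases, and factors of ribosome assembly. KRAB members lie largely in tandem clusters that expanded by duplication, so probes of close copies can share target sequence.

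Between 42.8% and 66.6% of probes per array were well above background, and no Zfp gene was saturated on any array. Position on the slide was tied to treatment: 10 of 16 carbon black arrays and 0 of 18 control arrays lay at position 4, while 12 control arrays lay at position 1. Atrial markers (Myl7, Myl4, Sln and Nppa) had a mean deviation under -1.5 on 4 arrays, 1 of carbon black and 3 of control. All 4 had all-days log2 fold changes above 0 (median 0.63), and none passed. Of 9 listed liver markers 7 were measured, and their mean deviation was uneven between the groups at day 1 (mean 0.00019, lowest -0.76, highest 1.16 on carbon black arrays, against mean 1.41, lowest 0.0053, highest 2.43 on control arrays). At day 3 it was 1.17 (lowest -0.21, highest 2.66) on carbon black arrays and 1.67 (lowest -0.26, highest 4.25) on control arrays, and at day 28 it was -0.13 and -0.25. Over all days 6 of the 7 were lower after carbon black (median -0.76), and none passed. At an unadjusted limma p under 0.05, 3 of the 7 were lower, beside 7.49% of all genes. The heart tissue itself was checked with 8 cardiomyocyte markers, all 8 of which were measured. Their mean deviation lay between -0.99 and 0.91 on carbon black arrays and between -1.03 and 0.35 on control arrays. All 8 had all-days log2 fold changes above 0 (median 0.35, highest 0.82). At an unadjusted limma p under 0.05, 4 of the 8 were higher, beside 10.8% of all genes. Of the 8, 1 passed and rose, Tnni3 (adjusted p = 0.0461 in limma), beside 1.32% of all genes called higher. The other marker lists gave no call over all days. Their median log2 fold changes were 0.37 for adipocyte markers (7 of 7 above 0) and -0.44 for airway markers (1 of 3). Fibroblast markers had -0.36 (2 of 7), macrophage markers -0.14 (1 of 7), lymphocyte markers 0.065 (4 of 6) and endothelial markers -0.054 (0 of 7). Of all genes, 50.4% lay above 0. In bulk tissue, fewer cells of a type and less RNA per cell cannot be told apart.

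After carbon black, 3 of the 218 Zfp genes rose when the 3 days were averaged, and none fell. They were Zfp451, a SUMO ligase that also represses TGF-beta signalling, Zfp143, an activator of many housekeeping and small RNA promoters that also sits at chromatin loop anchors, and Zfp809, a KRAB factor that silences murine leukaemia virus and related endogenous retroviruses. Their log2 fold changes were 0.39 ± 0.09, 0.27 ± 0.07 and 0.35 ± 0.09 (± SE, limma, 34 arrays), with Benjamini-Hochberg adjusted p of 0.0378, 0.0379 and 0.0418. The 3 genes are 1.38% of the Zfp genes, beside 1.95% of all genes past the same threshold, 1.32% higher and 0.626% lower. The share among Zfp genes was thus near that among all genes.

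The promoter windows of these 3 genes are shown because they are the members that rose. Each holds the 250 bases before and 50 after an annotated start, from RefSeq on GRCm38.p6, and capitals mark a CCAAT box (CCAAT or ATTGG), a GC box (GGGCGG) or an ETS site (CCGGAAG or CTTCCGG). Zfp451 lies at chr1:33814546-33814845 on the minus strand, Zfp143 at chr7:110061452-110061751 on the plus strand and Zfp809 at chr9:22225453-22225752 on the plus strand. For Zfp143 and Zfp809 the table holds a second window that overlaps this one.
Zfp451: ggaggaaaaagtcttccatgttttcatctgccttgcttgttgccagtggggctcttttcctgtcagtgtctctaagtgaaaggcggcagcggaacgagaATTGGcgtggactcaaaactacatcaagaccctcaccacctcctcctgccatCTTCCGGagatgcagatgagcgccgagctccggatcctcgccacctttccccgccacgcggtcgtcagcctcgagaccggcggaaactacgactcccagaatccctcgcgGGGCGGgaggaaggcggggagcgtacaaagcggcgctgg
Zfp143: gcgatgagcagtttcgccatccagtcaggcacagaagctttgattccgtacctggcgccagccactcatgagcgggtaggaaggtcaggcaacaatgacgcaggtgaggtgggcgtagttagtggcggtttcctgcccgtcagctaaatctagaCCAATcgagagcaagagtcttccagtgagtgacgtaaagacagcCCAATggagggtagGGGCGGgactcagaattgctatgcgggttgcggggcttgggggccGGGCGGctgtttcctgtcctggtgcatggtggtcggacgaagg
Zfp809: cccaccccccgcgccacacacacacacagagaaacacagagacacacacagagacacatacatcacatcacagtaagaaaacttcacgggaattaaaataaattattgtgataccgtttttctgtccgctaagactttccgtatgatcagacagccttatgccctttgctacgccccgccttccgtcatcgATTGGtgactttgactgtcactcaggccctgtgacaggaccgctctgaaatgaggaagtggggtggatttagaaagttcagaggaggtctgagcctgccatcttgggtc
The Zfp451 window held 1 CCAAT box, 1 GC box and 1 ETS site, the Zfp143 window 2 CCAAT boxes and 2 GC boxes, and the Zfp809 window 1 CCAAT box. GC content was 59.7% for Zfp451, 58.7% for Zfp143 and 49.3% for Zfp809.

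Windows were found for 180 of the 218 genes (224 windows, since some genes have several starts), and were set beside 12604 windows of all named genes that passed the same filter. Both strands were searched, and each motif was searched on its own, so a base could belong to more than 1. A CCAAT box occurred in 46.0% of Zfp windows against 37.5% of the windows of all passed genes. An ETS site occurred in 22.8% against 15.5% and the core of the ZNF143 site in 3.57% against 2.02%. A GC box was in 51.3% against 58.8%, and a TATA box (TATAAA) in 5.80% against 8.65%. The NRF1 site was in 10.3% against 8.87%, the YY1 core (AAGATGGCG) in 3.12% against 2.61%, the cAMP response element (TGACGTCA) in 2.23% against 2.69% and the E-box (CACGTG) in 6.25% against 9.39%. Median GC content was 56.5% against 60%. Windows of neighbouring duplicates share ancestry and are not independent, and these shares are a description of letters.

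Zfp451 had log2 ratios of -0.51 (lowest), -0.43 (median) and -0.30 (highest) on the 6 carbon black arrays of day 1, against -1.53, -0.84 and -0.52 on the 6 control arrays. At day 3 the 5 carbon black arrays gave -0.61, -0.60, -0.55, -0.55 and -0.52, against a lowest, median and highest of -1.67, -1.01 and -0.51 in control. At day 28 the 5 carbon black arrays gave -0.67, -0.64, -0.46, -0.34 and -0.34, against -1.18, -0.71 and -0.46 in control. All 16 carbon black arrays lay above the mean of the control arrays of their day, and the groups did not overlap at day 1. The carbon black arrays were close together (SD 0.11 over 16 arrays), and the control arrays were spread out (SD 0.37 over 18 arrays), with a tail of low values. The 5 lowest values of Zfp451 were on control arrays. They were -1.53 for replicate 5 of day 1, -1.33, -1.30 and -1.67 for replicates 1, 4 and 6 of day 3, and -1.18 for replicate 4 of day 28. All 5 arrays lay at position 1, where 12 of the 18 control arrays lay. The 2 carbon black arrays at position 1, replicates 3 and 6 of day 1, gave -0.43 and -0.30.

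**Figure D1:**
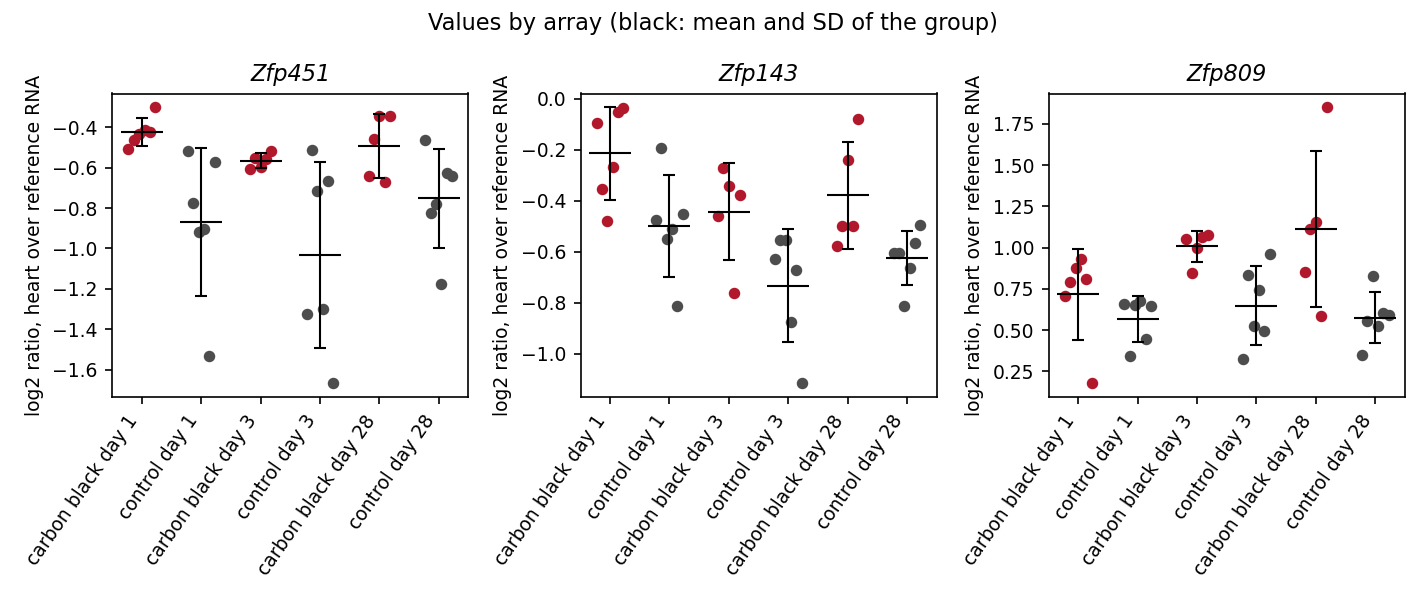
Log2 ratio of heart over reference RNA (y axis) on each array for Zfp451, Zfp143 and Zfp809, by group (x axis; red points carbon black, grey points control, black bars the group mean and SD). The control arrays of Zfp451 reach -1.67, while no carbon black array is under -0.67; for Zfp809 replicate 6 of carbon black at day 1 (0.18) lies apart from the other arrays of its group.

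Zfp143 had -0.48 (lowest), -0.18 (median) and -0.039 (highest) on the carbon black arrays of day 1, against -0.81, -0.49 and -0.19 on the control arrays. At day 3 carbon black gave -0.76, -0.46, -0.38, -0.34 and -0.27, against -1.12, -0.65 and -0.55 in control. At day 28 carbon black gave -0.58, -0.50, -0.50, -0.24 and -0.082, against -0.81, -0.60 and -0.50 in control. The groups overlapped at each day, and 15 of 16 carbon black arrays were above the control mean of their day. The day differences were 0.28 ± 0.11, 0.29 ± 0.12 and 0.25 ± 0.12 (± SE), alike in size at day 1, day 3 and day 28.

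Zfp809 had 0.18 (lowest), 0.80 (median) and 0.93 (highest) on the carbon black arrays of day 1, against 0.34, 0.65 and 0.67 on the control arrays. At day 3 carbon black gave 0.84, 1.00, 1.06, 1.06 and 1.08, against 0.32, 0.63 and 0.96 in control. At day 28 carbon black gave 0.59, 0.85, 1.11, 1.16 and 1.85, against 0.35, 0.57 and 0.83 in control. The groups overlapped at each day, with 15 of 16 carbon black arrays above their control mean. The differences were 0.15 ± 0.15 at day 1, 0.36 ± 0.15 at day 3 and 0.54 ± 0.15 at day 28 (± SE), and the F test of a difference between days did not pass for any Zfp gene.

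Slides carried several arrays, which allowed a comparison within slides. In 10 pairs of a carbon black and a control array of the same day on the same slide, Zfp451 was higher in carbon black in 9 pairs (mean difference 0.37, SD 0.30), Zfp143 in 9 pairs (0.22, SD 0.21) and Zfp809 in 10 pairs (0.33, SD 0.22). In all 10 pairs the carbon black array lay at position 4 and the control array at position 1, so treatment and position cannot be told apart there. With position as a block over all arrays, the estimates were 0.35 ± 0.13 for Zfp451, 0.28 ± 0.09 for Zfp143 and 0.35 ± 0.12 for Zfp809 (± SE), and the calls ended (limma adjusted p = 0.564 for each). With the slide as a fixed block the estimates were 0.35, 0.23 and 0.36, and with the scan day as a block 0.38, 0.28 and 0.29, again with no call. The position, slide and scan day blocks each left 0% of all genes called. Without the 4 arrays of low atrial score 9 Zfp genes passed, beside 6.85% of all genes, and without the 3 of highest liver score 0 passed, beside 0.0152%. These 3 were replicate 3 of carbon black and replicates 5 and 6 of control, all of day 3. Without replicate 3 alone 0 Zfp genes passed (beside 0% of all genes), and without replicate 6 alone 0 (beside 0.253%). Without replicate 5 alone 3 passed (beside 1.64%). The cardiomyocyte markers moved in the same direction as the 3 genes, with a median of 0.35, and the part of these marker lists in the result was not tested.

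The calls stood close to the threshold. All 3 calls ended on leaving out any 1 of 16 arrays, which were replicates 1, 4 and 5 of carbon black at day 1, replicates 1, 2, 3 and 5 of carbon black at day 3, replicates 3 and 5 of carbon black at day 28, replicates 3 and 5 of control at day 1, replicates 1, 4 and 6 of control at day 3, and replicates 4 and 5 of control at day 28. Without replicate 2 of carbon black at day 28 the calls of Zfp451 and Zfp809 ended, without replicate 2 of carbon black at day 1 that of Zfp809, without replicate 3 of control at day 28 those of Zfp451 and Zfp143, and without replicate 1 of control at day 28 those of Zfp143 and Zfp809. The fold changes themselves moved little when an array was left out, between 0.35 and 0.43 for Zfp451, 0.25 and 0.30 for Zfp143 and 0.29 and 0.39 for Zfp809.

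Zfp451 and Zfp143 were each measured by 1 probe that passed. Zfp809 had a second, dimmer probe that also differed in the same direction, by 0.20 ± 0.06 (± SE, limma).

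**Figure D2:**
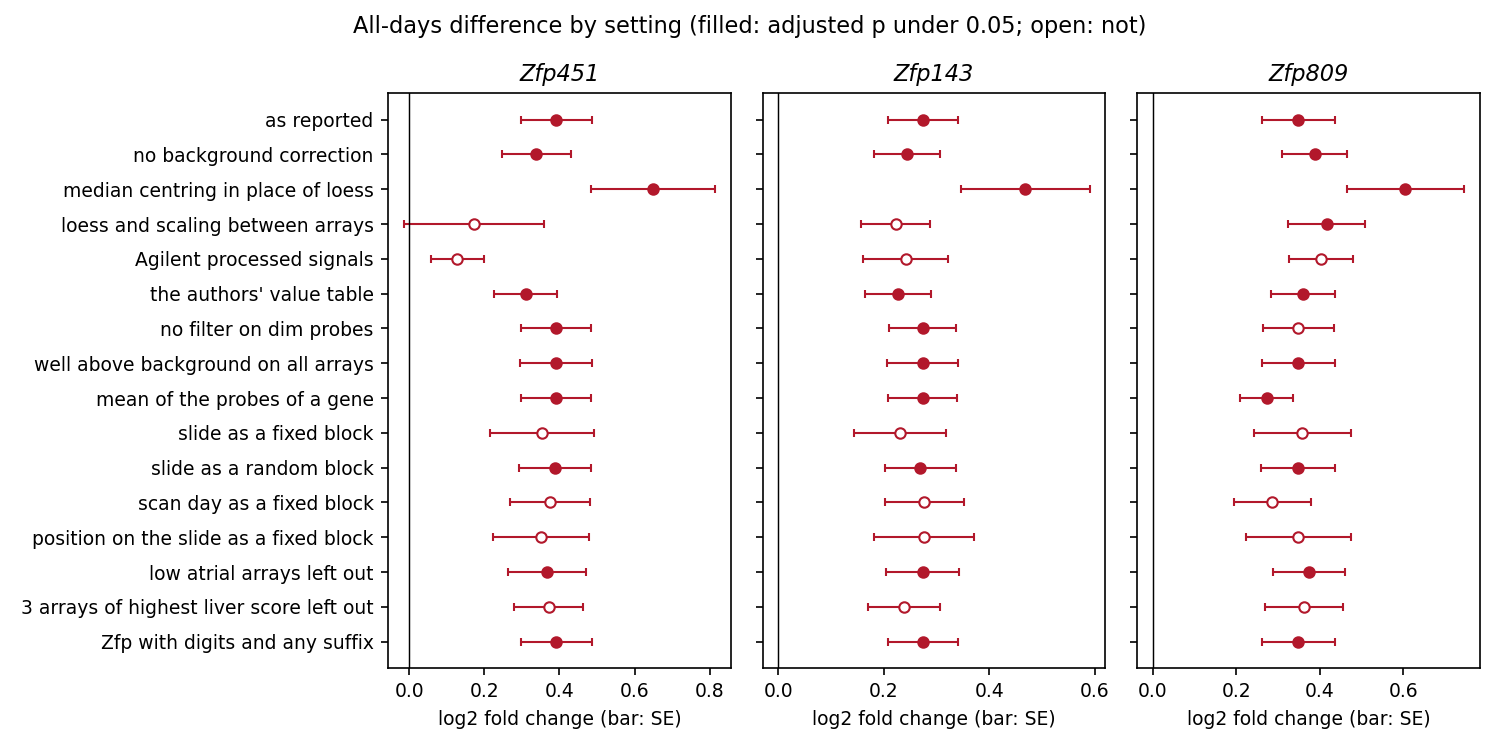
All-days log2 fold change of carbon black over control (x axis; bar, SE) for Zfp451, Zfp143 and Zfp809 under the reported setting and 15 others (y axis); filled points pass an adjusted p of 0.05 and open points do not. Every estimate is above 0; that of Zfp451 lies between 0.13 with the Agilent processed signals and 0.65 with median centring.

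The next 9 Zfp genes by p did not pass. Zfp52 averaged -0.28 ± 0.17 on carbon black arrays and -0.68 ± 0.42 on control arrays (SD, n = 16 and 18), a difference of 0.39 (adjusted p = 0.0535 in limma). Its second probe gave 0.29. Zfp444 differed by 0.41 (adjusted p = 0.0601), with -0.52 ± 0.19 in carbon black and -0.94 ± 0.44 in control, but its second probe gave -0.033 with an opposite sign. For both genes the lowest values fell on the same control arrays as for Zfp451: replicate 5 of day 1 gave -1.59 for Zfp52 and -1.93 for Zfp444, and replicate 6 of day 3 gave -1.58 and -1.74. The first of these arrays also had the lowest share of probes well above background (42.8%) and the lowest median signal (99.0) of all 34 arrays. The second had 53.3% and 123, beside medians of 54.9% and 115 over the arrays. Their cardiomyocyte marker scores were -0.82 and -1.03 in the same order, the latter the lowest of the 34 arrays. Their liver marker scores were 0.63 and 3.24. Replicate 5 of control at day 3 had scores of -1.01 and 4.25, with Zfp451 at -0.67, Zfp52 at -0.70 and Zfp444 at -0.63. The part of these scores in the low values was not tested.

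The other 7 were Zfp472 (0.24), Zfp954 (-0.20), Zfp553 (-0.20), Zfp276 (-0.15), Zfp462 (0.25), which takes part in heterochromatin and pluripotency control, Zfp41 (-0.22) and Zfp318 (0.27), which is needed in B cells for surface IgD. Their adjusted p in limma lay between 0.0694 and 0.119. The signs of Zfp954, Zfp553, Zfp276 and Zfp41 turned positive with median centring in place of loess, which moved the median of all genes by 0.19. Those of Zfp472 and Zfp318 turned negative when another probe of the gene was used, and that of Zfp472 also with Agilent processed signals.

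Across all 218 Zfp genes, the all-days log2 fold change had a median of -0.0075, beside 0.0011 over all genes, and 106 Zfp genes (48.6%) lay above 0, beside 50.4% of all genes. Absolute differences were small, with a median of 0.072 for Zfp genes and 0.091 for all genes. At an unadjusted p under 0.05 there were 33 Zfp genes (15.1%), 15 higher and 18 lower, beside 18.3% of all genes. Each of these shares lay within a few percentage points of that of all genes.

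**Figure D3:**
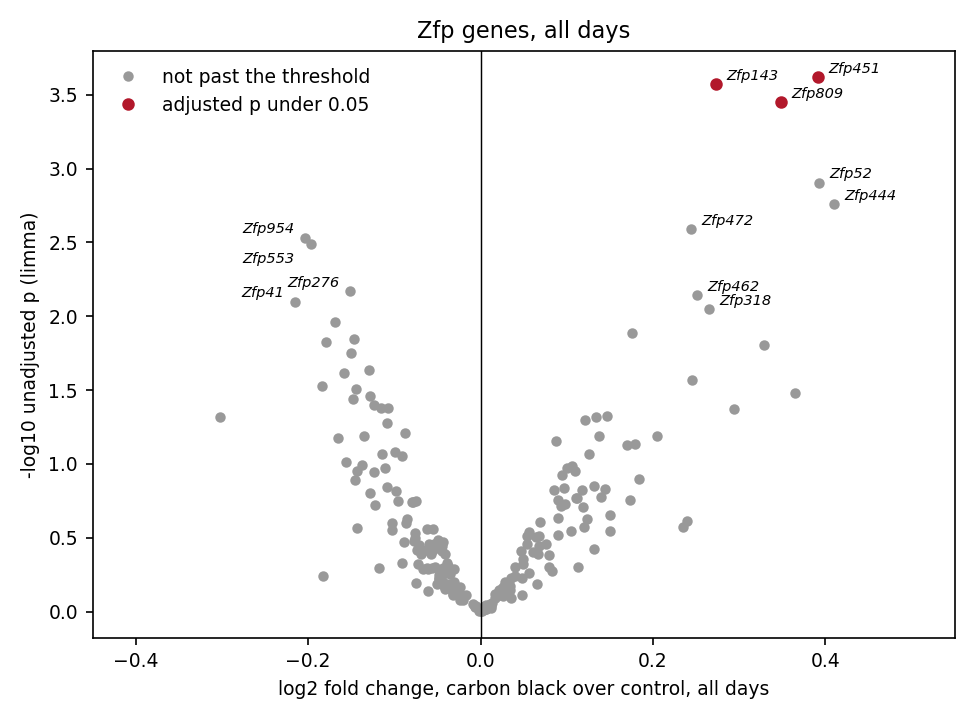
Each of the 218 Zfp genes by its all-days log2 fold change of carbon black over control (x axis) and the -log10 of its unadjusted limma p (y axis), with the 12 of smallest p named. The 3 red points passed an adjusted p of 0.05, and the median of all points is -0.0075; the points left of 0 that are named turn positive with median centring in place of loess.

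Day by day, no Zfp gene passed at day 1, day 3 or day 28, beside 0% of all genes at each of these days, so limma gave 0 calls in all 3 comparisons. At an unadjusted p under 0.05 there were 10 Zfp genes at day 1 (4.59%, beside 7.21% of all genes), 26 at day 3 (11.9%, beside 11.1%) and 5 at day 28 (2.29%, beside 2.98%). Both the Zfp genes and the array as a whole thus had their highest share at day 3 and their lowest at day 28.

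At day 1 the Zfp genes of smallest p were Zfp105 (-0.40 ± 0.14), Zfp451 (0.45 ± 0.16), Zfp462 (0.39 ± 0.15), Zfp444 (0.52 ± 0.20), Zfp143 (0.28 ± 0.11) and Zfp954 (-0.26 ± 0.11), all with adjusted p of 0.540 or above in limma (± SE). Zfp105 had -0.017, 0.25 and 0.78 as its lowest, median and highest value on carbon black arrays, against 0.46, 0.72 and 0.88 on control arrays. Zfp451 was the only Zfp gene whose groups did not overlap at day 1, 1 of 218 (0.459%), beside 0.359% of all genes.

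At day 3 they were Zfp944 (-0.33 ± 0.11), Zfp41 (-0.38 ± 0.13), Zfp655 (0.36 ± 0.13), Zfp451 (0.47 ± 0.17), Zfp462 (0.43 ± 0.15) and Zfp28 (-0.28 ± 0.10), each with an adjusted p of 0.346 in limma (± SE). Groups did not overlap for 3 Zfp genes, Zfp24, Zfp28 and Zfp318, which is 1.38% beside 0.899% of all genes. Zfp24, a SCAN domain factor needed for myelination, had 0.084, 0.12, 0.17, 0.19 and 0.34 on carbon black arrays, against -0.82, -0.24 and 0.073 as lowest, median and highest in control. Zfp28 had -0.18, -0.16, -0.056, 0.029 and 0.076 in carbon black, against 0.087, 0.18 and 0.42 in control. Zfp318 had -0.15, -0.11, -0.048, 0.066 and 0.12 in carbon black, against -0.96, -0.21 and -0.15 in control.

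At day 28 they were Zfp809 (0.54 ± 0.15), Zfp207 (-0.20 ± 0.10), Zfp143 (0.25 ± 0.12), Zfp951 (-0.20 ± 0.10), Zfp553 (-0.22 ± 0.11) and Zfp472 (0.26 ± 0.13), with adjusted p of 1.00 in limma (± SE). Zfp809 had the smallest unadjusted p of any Zfp gene on any single day (0.00138). No Zfp gene had groups without overlap at day 28 (0 of 218, beside 0.379% of all genes).

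**Figure D4:**
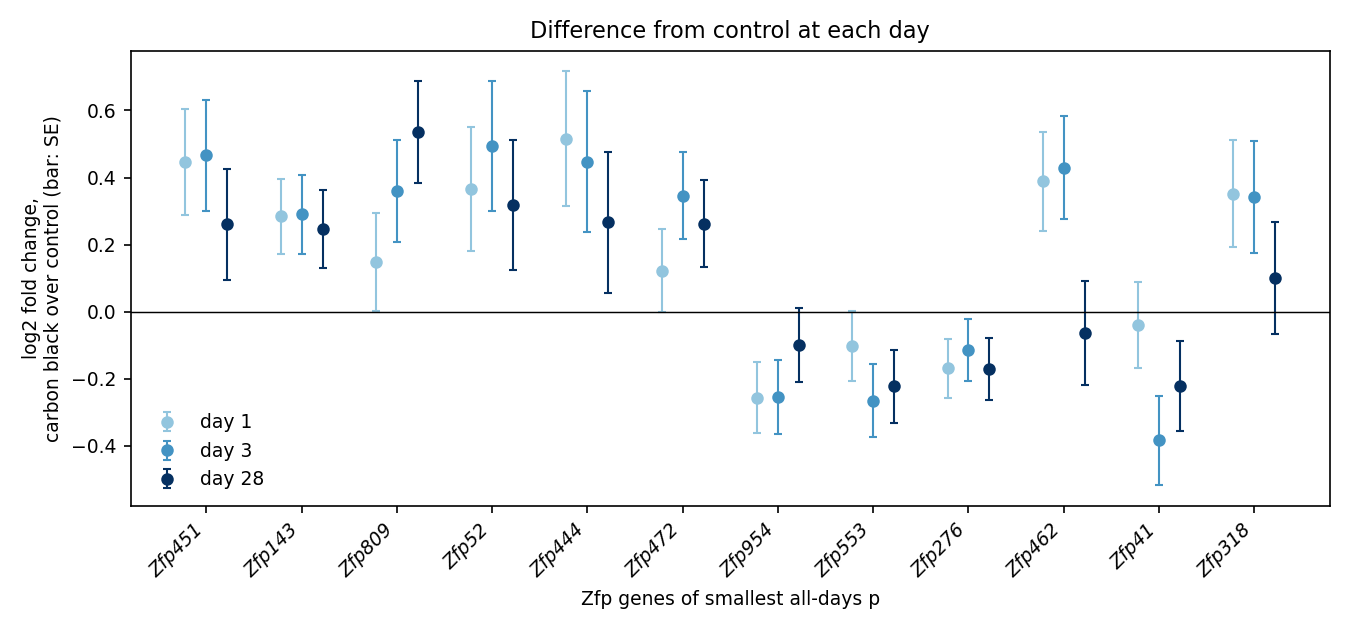
Log2 fold change of carbon black over control (y axis; bar, SE) at day 1, day 3 and day 28 for the 12 Zfp genes of smallest all-days p (x axis). No single day passed an adjusted p of 0.05; Zfp462 is at 0.39 and 0.43 at day 1 and day 3 and at -0.064 at day 28, and the signs of Zfp954, Zfp553, Zfp276 and Zfp41 over all days turn with median centring in place of loess.

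The test of a difference between the day effects gave no call among the Zfp genes or among all genes (0% of 19798), and 1 Zfp gene (0.459%, beside 1.01%) had an unadjusted p under 0.05. That gene was Zfp184, with effects of 0.11, -0.24 and 0.11 at day 1, day 3 and day 28 (adjusted p = 1.00 in limma's F test). Next came Zfp462, Zfp217, Zfp273, Zfp655 and Zfp687, with unadjusted p between 0.0542 and 0.0756. In 1 group all arrays of Zfp217 were near background, so its effects are not given. For Zfp273 the effects were -0.27, -0.10 and 0.25 at these days.

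Changes over time within the exposed mice were also tested, and no Zfp gene passed, beside 0% of all genes in each comparison. At an unadjusted limma p under 0.05 there were 8 Zfp genes for day 3 over day 1 (3.67%, beside 5.42% of all genes), 7 for day 28 over day 1 (3.21%, beside 4.28%) and 4 for day 28 over day 3 (1.83%, beside 1.36%). Zfp655 had the smallest p and differed by 0.48 ± 0.13 between day 3 and day 1 (adjusted p = 0.354 in limma) and by 0.43 ± 0.13 between day 28 and day 1 (adjusted p = 0.996, ± SE). Its values were 0.15, 0.21, 0.45, 0.54 and 0.56 on the carbon black arrays of day 3. Those of day 1 had a lowest, median and highest of -0.28, -0.055 and 0.036. On control arrays it lay at -0.34, -0.068 and 0.15 at day 1, at -0.61, 0.055 and 0.36 at day 3, and at 0.098, 0.21 and 0.36 at day 28 (lowest, median, highest). Day 28 was also above day 1 in control, by 0.28 ± 0.12 (adjusted p = 1.00 in limma).

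The next smallest p for day 3 over day 1 in exposed mice belonged to Zfp184 (-0.34), Zfp982 (-0.27) and Zfp629 (0.38). For day 28 over day 1 they were Zfp687 (-0.24), Zfp608 (-0.40) and Zfp809 (0.40), and for day 28 over day 3 Zfp207 (-0.26), Zfp647 (0.27), Zfp184 (0.28) and Zfp599 (0.34). In control mice the 4 of smallest p for day 3 over day 1 were Zfp513 (0.30), Zfp319 (-0.25), Zfp143 (-0.23) and Zfp90 (-0.27). For day 28 over day 1 they were Zfp655 (0.28), Zfp91 (-0.21), Zfp36 (0.47) and Zfp637 (-0.17), and for day 28 over day 3 Zfp821 (-0.22), Zfp90 (0.29), Zfp64 (0.23) and Zfp781 (0.20). None of the control comparisons had a call, beside 0% of all genes. At an unadjusted limma p under 0.05 there were 4, 2 and 4 Zfp genes in the order just given, beside 2.05%, 1.18% and 4.45% of all genes. Adjusted p was 0.660 or above for every gene named in these time comparisons other than Zfp655.

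Levels in the heart relative to the reference RNA spread widely around 0. In control hearts 122 of the 218 genes (56.0%) lay above the reference, beside 54.6% of all genes, and the median log2 ratio was 0.049, beside 0.060. With median centring in place of loess the count was 53, beside 34.4% of all genes, so the position of 0 depends on the normalization. The Zfp genes lay between -1.86 and 3.42. Each ratio comes from a probe of its own, and where a Zfp gene had several probes they differed in ratio by a median of 0.38, so the order below is that of the brightest probes and ranks no amounts of RNA.

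The 10 highest were Zfp975 (3.42), Zfp612 (3.33), Zfp536 (2.36), Zfp579 (2.31), Zfp521 (2.25), Zfp46 (1.79), Zfp106 (1.65), Zfp286 (1.57), Zfp672 (1.56) and Zfp704 (1.39), as means of 18 control arrays. The SD of these genes over the control arrays lay between 0.23 and 1.02. Zfp975 averaged 3.56 ± 0.38 on carbon black arrays and 3.42 ± 0.46 on control arrays (SD), and its second probe gave 3.17 on control arrays. The other probes of 2 of these genes lay elsewhere: Zfp704 had -0.64 by its second probe, and Zfp106 had 1.16, 0.61 and 0.22 by its other 3. Zfp612 averaged 3.32 ± 0.68 on carbon black arrays and 3.33 ± 0.32 on control arrays. Zfp521 is a regulator of mesenchymal and blood progenitors, Zfp536 is known as a repressor in neural differentiation, and Zfp106 is an RNA binding protein whose loss in mice leads to muscle and nerve degeneration.

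The 10 lowest were Zfp503 (-1.86), Zfp593 (-1.83), Zfp7 (-1.71), Zfp64 (-1.36), Zfp296 (-1.28), Zfp69 (-1.05), Zfp622 (-0.95), Zfp444 (-0.94), Zfp451 (-0.88) and Zfp41 (-0.82). Zfp593 and Zfp622 act in assembly of the large ribosomal subunit, as known from their yeast relatives. By their second probes Zfp593 had -0.82, Zfp296 -0.98 and Zfp444 -0.31. The reference is a pool of RNA from mouse cell lines, and a low ratio says only that this pool gave more signal.

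**Figure D5:**
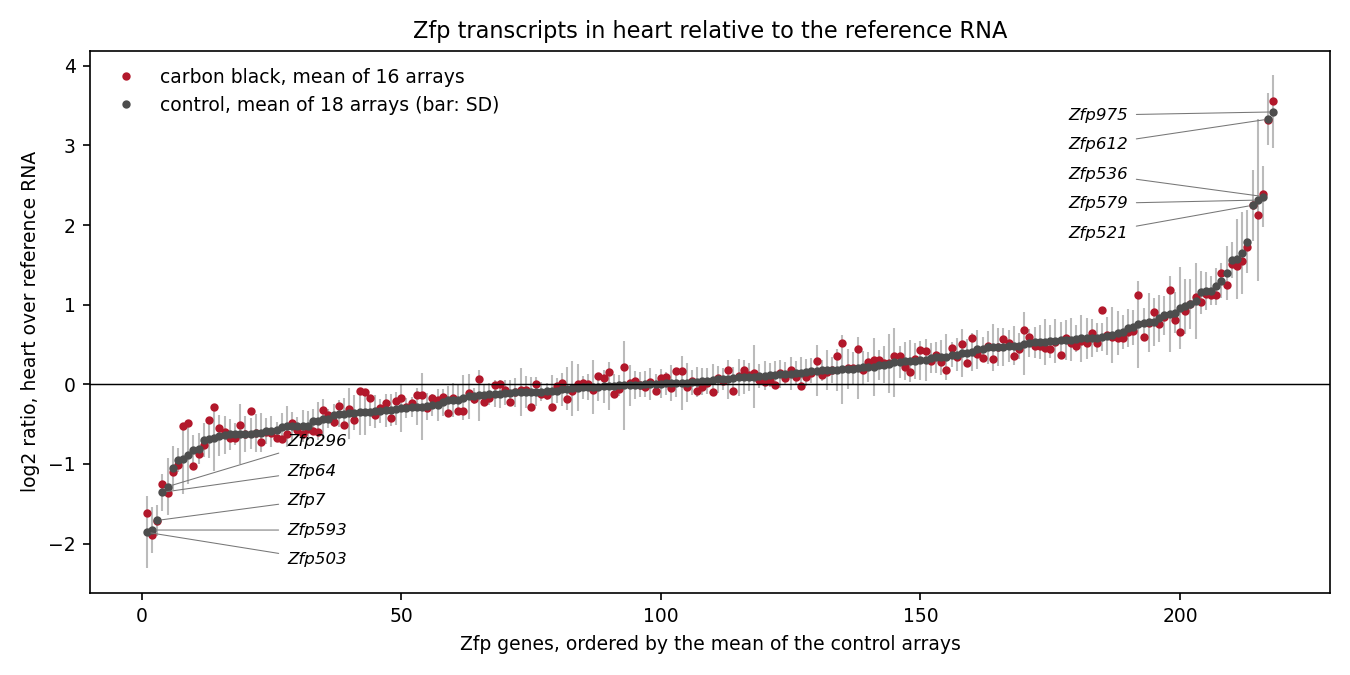
Mean log2 ratio of heart over reference RNA (y axis) for the 218 Zfp genes ordered by their control mean (x axis); red points are means of the 16 carbon black arrays, grey points means of the 18 control arrays with their SD. Zfp503 at -1.86 and Zfp975 at 3.42 are the ends of the order, and carbon black means follow the control means closely.

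Zfp579 varied most between mice of a group (within-group SD 0.98, beside a median of 0.21 for Zfp genes and 0.26 for all genes). Its lowest 5 values stood apart from the rest: 0.34 on replicate 6 of carbon black at day 1, 0.59 on replicate 2 of carbon black at day 3, 0.20 on replicate 2 of control at day 1, 0.46 on replicate 4 of control at day 3 and 0.048 on replicate 2 of control at day 28. All other arrays were at 1.71 or above. These 5 arrays also had the 5 lowest atrial marker scores, which were -4.23, -1.33, -3.89, -3.88 and -3.53 in the same order, while the other arrays were at -0.58 or above. The part of atrial tissue in this spread was not tested. No carbon black difference was detectable for Zfp579 against that spread (-0.18 ± 0.32 SE over all days, adjusted p = 0.824 in limma).

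Next in within-group SD were Zfp503 (0.63), Zfp185 (0.61), Zfp612 (0.53), Zfp106 (0.53) and Zfp286 (0.52). Zfp106 also gave different answers by probe. Its 4 probes had all-days differences of -0.12, -0.22, 0.33 and 0.099. Of 82 Zfp genes with more than 1 probe that passed, 42 had probes of 1 sign. The widest gaps belonged to Zfp207 (-0.13 and 0.42), Zfp106, Zfp414 (-0.11 and 0.40), Zfp444 (0.41 and -0.033), Zfp770 (-0.050 and 0.36) and Zfp273 (-0.042 and 0.31). In Zfp207, Zfp414, Zfp770 and Zfp273 it was the dimmer probe that was higher after carbon black. Their limma p were 0.0012, 0.0013, 0.0029 and 0.0147, not adjusted over probes. The genes were picked for the gap between probes in these same values, so the choice itself favours small p.

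By role, 13 Zfp genes listed for RNA or protein level functions were all measured. Of these 1 passed (Zfp451, already counted above), beside 1.95% of all genes. The median all-days log2 fold change of the 13 was -0.042, beside 0.0011 over all genes. Zfp36, tristetraprolin, which binds AU-rich elements and speeds decay of cytokine and immediate early messages, averaged -0.13 ± 0.41 in carbon black and -0.28 ± 0.43 in control (SD), a difference of 0.15 ± 0.14 (SE). At day 1 it had -0.55, -0.21 and 0.52 on carbon black arrays, against -1.05, -0.47 and -0.34 on control arrays as lowest, median and highest (0.41 ± 0.23 SE, adjusted p = 0.745 in limma). At day 3 it differed by 0.11 and at day 28 by -0.063, with overlapping groups.

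Zfp207, a spindle assembly factor, differed by -0.13 by its brighter probe, and Zfp830, a splicing factor, by 0.13, with unadjusted limma p of 0.0233 and 0.0483 and neither past the threshold. Zfp91, a ubiquitin ligase, differed by -0.075, Zfp326, which acts in splicing and elongation, by -0.042, Zfp346, a binder of double-stranded RNA, by 0.11, and Zfp706 by -0.14. Zfp598, the ligase that marks collided ribosomes, differed by -0.0015, Zfp593 by -0.069, Zfp622 by -0.063 and Zfp638, a nuclear RNA binding protein, by -0.0057.

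Of the genes listed for the heart, 3 of 4 were measured and none passed in limma, also not at an unadjusted p under 0.05. Zfp260, a partner of Gata4 in hypertrophic signalling, differed by 0.017 ± 0.054 and Zfp418, a KRAB factor studied in hypertrophy, by 0.00056 ± 0.057 (± SE). Zfp260 was well above background on 20 of 34 arrays and Zfp418 on 15, and the offset of 50 added to both channels shrinks the ratios of such dim genes. Zfp106, on the same list, is described above.

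None of 5 measured genes listed for fat and mesenchyme passed, adjusted or unadjusted (of 6 listed). Zfp423, which marks committed preadipocytes, differed by 0.011, its antagonist Zfp521 by 0.0068 and Zfp467 by -0.15. Zfp217, near background in 1 whole group, is given no difference. Of the genes for imprinting and retroelements 2 of 5 were measured, Zfp809 and Zfp445. Zfp445, which with Zfp57 keeps imprints, differed by 0.17 ± 0.13 (SE, adjusted p = 0.499 in limma), and Zfp57 did not pass the detection filter.

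Of 10 listed promoter and chromatin factors 7 were measured. Among these 1 passed (Zfp143, already counted above), beside 1.95% of all genes. Zfp384 differed by -0.12, Zfp281 by 0.12, Zfp148 by -0.085, Zfp410, which controls the Chd4 gene, by 0.050, and Zfp609, a partner of the cohesin loader, by -0.043. Of the remaining 12 listed genes 8 were measured and none passed. At an unadjusted limma p under 0.05 there was 1 (Zfp318), beside 18.3% of all genes. Zfp110 and Zfp369, which bind the p75 neurotrophin receptor, differed by 0.011 and 0.024, Zfp503 by 0.24, Zfp704 by -0.14 and Zfp90 by 0.033. Zfp354a and Zfp354b, whose letter suffix keeps them out of the 218, differed by 0.052 and 0.011.

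The machinery through which KRAB members repress was examined next. Of 24 listed genes 21 were measured, and 1 passed, Mphosph8 (0.35 ± 0.09 SE, adjusted p = 0.0471 in limma), a subunit of the HUSH silencing complex. That is 1 call in a list of 21, beside 1.95% of all genes, and it ended under the position, slide and scan day blocks, where no gene passed. Their median was -0.0027, with 9 above 0. Trim28 differed by -0.077 and the methyltransferase Setdb1 by -0.14. The heterochromatin proteins had values of both signs that did not pass, -0.24 for Cbx5 (adjusted p = 0.0555 in limma), 0.51 for Cbx3 (adjusted p = 0.0710) and -0.28 for Cbx1 (adjusted p = 0.15).

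Genes listed as partners of tristetraprolin, only some of which remove poly(A) tails or compete for AU-rich elements, gave 0 calls among 19 measured of 21 listed. At an unadjusted p under 0.05, 8 were higher and 1 lower, with a median of 0.12, beside 10.8% of all genes higher and 7.49% lower at that p. Cnot7, a deadenylase subunit, differed by 0.18, Khsrp, a decay factor, by 0.29, Cnot10 by 0.24 and Cnot6l by 0.16, with adjusted p in limma between 0.127 and 0.175. Zfp36l1 and Zfp36l2, relatives of Zfp36, differed by 0.052 and -0.017. Among known target messages 0 of 13 measured passed (median -0.026), and among immediate early genes 0 of 14 (median 0.018), with 1 gene of each list higher at an unadjusted limma p under 0.05.

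Of 15 measured zinc finger genes with other names, Zfx (0.31 ± 0.09) and Sp1 (0.47 ± 0.13) passed with limma adjusted p of 0.0485 and 0.0491 (± SE), beside 1.95% of all genes. Both calls ended under the same blocks. Sp1 averaged -0.81 ± 0.20 in carbon black and -1.27 ± 0.48 in control (SD), a wider spread in control as for Zfp451. Gata6 differed by 0.26 (adjusted p = 0.0935 in limma) and Klf15 by 0.39 (adjusted p = 0.348).

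Many Zfp genes lie next to each other in the genome: 108 of the 218 had another Zfp gene as their direct neighbour in RefSeq gene order, and 110 had none. Clustered genes had a median control log2 ratio of 0.072, against 0.023 for single ones, and 60.2% against 51.8% lay above the reference. Median all-days differences were -0.024 for clustered and 0.000043 for single genes. The longest run held 15 Zfp genes between Zfp84 and Zfp146, 10 of which were measured, with none past the threshold. A run shares position and ancestry and its genes are not independent of each other.

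Detection set the membership. Of the 218 genes, 138 (63.3%) were well above background on all 34 arrays, beside 60.5% of all genes. In 3 genes (Zfp217, Zfp526 and Zfp759) at least 1 group had no array well above background, so their values there are bounds. Just inside the rule were Zfp609 and Zfp775, at 50% of the arrays of their best group, and Zfp217 and Zfp345, at 60%. Just outside were Zfp663, Zfp560, Zfp811 and Zfp365, at 40%. The 36 genes with a probe that did not pass include Zfp42 (Rex1) and Zfp352, known from the early embryo and stem cells, and Zfp516, a factor of brown fat.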

How the data were processed

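Per the file headers, the authors scanned 34 Agilent 4x44K arrays and extracted intensity values per spot with Agilent Feature Extraction 10.1.1.1; the array design gives build mm8. The same deposited files hold quality flags and a log10 ratio of the processed signals. A deposited table of log2 ratios has no stated normalization; per array it correlated at 0.996 to 0.998 with loess-normalised log2 ratios of heart over reference without background correction, and its medians lay between -0.055 and -0.034. Its direction is heart over reference, as here.

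The deposited median foreground intensity was corrected in limma 3.58.1 (R 4.3.3) by normexp with an offset of 50, and loess was then run on each array. The offset shrinks ratios of dim probes. Spots of a probe were averaged, and of the passing probes of a gene the brightest was kept, which gave 19798 genes. A gene was dropped if over 3 of its values were missing. Symbols came from RefSeq accessions (table on GRCm38.p6), and sequences without a symbol were kept as entries of their own. One mean per group was fitted with lmFit and eBayes (28 residual degrees of freedom). The all-days difference is the mean of the 3 day differences. Benjamini-Hochberg adjustment ran over all 19798 genes, with a threshold of 0.05. A marker score of an array is the mean deviation of the markers of a list. The fit was tested on simulated ratios with known shifts. These had independent normal noise, equal in spread in both arms, and no slide, scan day or position effects. The simulation thus could not test the fit for such effects or for unequal spread.

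The members, gene lists and tests were chosen with earlier results of these data known, so patterns seen before are not independent support. Named were the genes past the threshold, the 12 of smallest p over all days, the 6 at each day and between days, the 4 in each time comparison, the 10 highest and 10 lowest levels, the 6 of largest spread, genes on the role lists, genes at the edge of detection and the 6 whose probes differed most. Of other lists, up to 4 genes of smallest p were named, besides those that define a list. Zfp24, Zfp526, Zfp759, Zfp84, Zfp146, Trim28 and Setdb1 were named after their values were seen. Alternatives changed background, normalization, signals, filter, probe rule, blocks, arrays left out and membership. The number of arrays limits the precision. Protein sequences were not used here. Plots were made with python 3.11.15 and matplotlib 3.10.9.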

Additional observations from a re-analysis of the deposited data

Results flagged for a closer look

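In the 12 Zfp genes of smallest all-days p and in the array medians of all Zfp genes, 78 groups were examined for a single array far from the others of its group, and 7 were found, where chance gives about 1 in 20. Dixon's criterion for a gap was used. The groups share arrays and the genes were picked by p. The 7 are thus not independent, and no excess over 1 in 20 can be read from them.

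Of these 7, 3 were on replicate 6 of carbon black at day 1, the array of lowest atrial marker score. It also had the lowest adipocyte (-4.35), fibroblast (-2.04), macrophage (-1.80), endothelial (-2.16), liver (-0.76) and airway (-0.33) scores of all arrays. Its cardiomyocyte score was -0.99 and its lymphocyte score 0.52. This array gave 0.1777 for Zfp809, with the other 5 arrays between 0.71 and 0.93, -0.1040 for Zfp472, with the others between -0.62 and -0.53, and -0.1914 for Zfp41, with the others between -1.19 and -0.84. Without this array 7 Zfp genes passed over all days, beside 819 of all 19798 genes. The values of Zfp809 and Zfp41 on it lay against the direction of their all-days difference.

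Replicate 5 of control at day 1, the array of lowest median signal, gave -1.594 for Zfp52, with the others between -0.53 and -0.17, and -1.05 for Zfp318, with the others between -0.29 and -0.023. Without it 0 Zfp genes passed, beside 68 of all genes. Replicate 3 of control at day 3 gave -0.4346 for Zfp954, with the others between -0.0055 and 0.19, and without it 7 passed, beside 947 of all genes. The median of the Zfp genes was -0.05509 on replicate 4 of carbon black at day 3, with the others between -0.0071 and 0.012.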

How the results depend on the processing

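All 3 called genes stayed positive under every alternative, and the count of Zfp genes called at a single day, between days or over time stayed at 0. The all-days count of 3 (beside 1.95% of all genes) was 13 (7.51%) without background correction, 8 (6.75%) with median centring, 1 (Zfp809; 0.945%) with scaling between arrays, 0 (0%) with Agilent processed signals, 14 (7.57%) with the authors' deposited value table, 9 (6.85%) without the arrays of low atrial score, 0 (0.0152%) without the 3 arrays of highest liver score, 0 with the slide as a fixed block, 0 with the scan day as a block and 0 with position as a block (0% of all genes in each), and between 0 and 7 when each array was left out in turn (between 0 and 947 of all genes). No filter gave 2 (0.46%), the filter on all arrays 4 (3.34%), and 3 came with the mean of probes (0.707%), the slide as a random block (2.21%) and the wider membership (1.95%).

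The log2 fold changes of Zfp451, Zfp143 and Zfp809 that no longer passed were 0.3546, 0.231 and 0.3577 with the slide as a fixed block, 0.3753, 0.2768 and 0.2862 with the scan day, 0.3507, 0.2763 and 0.3484 with position, 0.1275, 0.2413 and 0.4023 with processed signals, and 0.3712, 0.2383 and 0.3622 without the highest liver arrays. With scaling between arrays Zfp451 was 0.1724 and Zfp143 0.2221, and without a filter Zfp809 was 0.348 (adjusted p = 0.0551 in limma). Leaving out arrays gave 0.3467 to 0.4256 for Zfp451, 0.2479 to 0.2999 for Zfp143 and 0.2864 to 0.3918 for Zfp809.

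Median centring moved the median of Zfp genes to 0.1916 over all days, 0.2074 at day 1, 0.2918 at day 3 and 0.05355 at day 28, beside 0.188, 0.208, 0.285 and 0.0792 for all genes, and the count above the reference to 53. It reversed Zfp954 (0.09188), Zfp553 (0.09241), Zfp276 (0.1275) and Zfp41 (0.03382). Processed signals moved the medians to 0.03336 at day 1 and 0.08065 at day 3 and reversed Zfp472 (-0.003851). The slide block moved the day 3 median to -0.04151. The filter on all arrays exchanged the probe and reversed Zfp472 (-0.1095) and Zfp318 (-0.03136). The other causes were not tested. Dim genes near background limit what could be detected. By replicate number, no paired analysis was possible because the labels number each mouse on its own, whereas arrays of the same slide were compared as pairs and with the slide as a block.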
